A study of Mus musculus and Homo sapiens with 17 samples.

Results

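The genes described are 9 that ERK signalling is known to switch on and that act back on it or carry it into transcription: the Sprouty genes Spry1, Spry2 and Spry4, the Sprouty-related genes Spred1, Spred2 and Spred3, the ETS factors Etv4 and Etv5, and Phlda1. They were picked by symbol, as 9 of 54532 named genes in a mouse count table and, by the upper-case form of the symbol, as 9 of 58735 in a human one. All 9 passed the filter on low counts in mouse and 8 passed in the human cells, where SPRED3 did not. Dual-specificity phosphatase genes, which ERK also induces, were left out of the group by this choice. The study asked what loss of DUSP1, a phosphatase that switches off MAP kinases, changes in cutaneous squamous cell carcinoma (SCC) and its surroundings. RNA-seq of poly(A) RNA was made from 17 libraries.

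The mouse libraries numbered 11 and came from C57BL/6-129 animals treated with DMBA, a carcinogen, and TPA, a tumour promoter. Wild-type (WT) animals gave 3 libraries of skin and 3 of SCC. Animals labelled Dusp1 knockout (KO) gave 3 libraries of papilloma and 2 of SCC, called papilloma and SCC labelled KO. The RNA came from whole frozen sections, so every cell type of a section contributed, although the labels name keratinocytes. No WT papilloma and no KO skin was among them, so the labelled genotypes can be compared within 1 lesion type only between the SCC groups. The human libraries numbered 6 and came from the squamous carcinoma cell line A431. Each xenograft was started from 100000 cells placed in mouse skin, was recovered after 3 weeks and was depleted of mouse cells. The 3 control libraries carried a guide RNA named for Tomato and the 3 KO libraries a guide RNA against DUSP1. The names of the KO libraries share the tag CL2, whose meaning the labels do not give, and those of KO 2 and KO 3 are the same apart from a running number. KO 2 and KO 3 were closer in counts to each other than to KO 1, with chi-square per degree of freedom of 5.22 against 14.03 and 12.6, and the labels do not say whether they share a source, so the KO arm may hold fewer than 3 independent libraries. Controls differed from each other by 3.56 to 7.21. Nothing in the labels says that replicates were separate animals or cultures. Y chromosome counts, given below, differed within WT skin and within SCC labelled KO, so the replicates of these groups were not all repeats of 1 sample. In the other groups, both A431 groups among them, the spread between libraries on which the p-values rest may be technical.

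Growth factor receptors act through RAS, RAF and MEK to activate ERK, and ERK then induces inhibitors of its own pathway. Sprouty and Spred proteins are such inhibitors: Spred proteins bring neurofibromin to the membrane to switch RAS off, and Sprouty proteins act between the receptor and RAF. ETV4 and ETV5 are ETS transcription factors that carry the signal to further genes, and the repressor Capicua keeps their own genes silent until ERK inactivates it. PHLDA1 is a pleckstrin-homology-like protein that growth factors and phorbol esters such as TPA induce. In skin, RAS-ERK signalling drives keratinocyte growth, and DMBA and TPA tumours commonly carry activated Hras.

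Dusp1 itself was read first, as the targeted gene. Its level in counts per 1e6 counts (CPM) was 52.4 to 109 in skin and 66.6 to 83.7 in SCC of WT animals, 109 to 129 in papilloma labelled KO and 139 and 174 in SCC labelled KO. The mouse libraries labelled KO thus held no less Dusp1 RNA than the WT libraries, and which part of the gene was deleted is not stated, so these counts do not check the label. In A431 the label held at the RNA level, with 467 to 485 CPM in controls and 71.0 to 77.1 in KO. Counts totalled 34.4 to 47.9 M in the mouse libraries and 41.2 to 53.5 M in those of A431. Skin and lesions differed in makeup. The summed level of 10 keratinocyte markers was 9510 to 17338 CPM in WT skin, 43607 to 45884 in WT SCC, 45364 to 71638 in papilloma labelled KO and 58056 to 61930 in SCC labelled KO. The sum of 8 fibroblast markers was 4985 to 36579 CPM in skin and 1092 to 4076 in the lesions, and that of 7 skeletal muscle markers 5721 to 7963 in skin and at most 126 in the lesions. No marker on the keratinocyte and fibroblast lists was at 0 in every library of a mouse group. In such sections fewer cells of a type and less RNA per cell cannot be told apart. Counts of Y chromosome genes were 6624 and 9552 in WT skin 1 and 2, 7 in WT skin 3, 4779 in replicate 2 of SCC labelled KO and 0 in the other mouse libraries.

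Against WT skin, 6 of the 9 genes passed as higher in WT SCC, and Spred3, Etv4 and Phlda1 passed as higher in both lesion groups labelled KO. Whether the lesions differ from each other is tested between them, and there 1 gene passed against WT SCC in each group labelled KO. By edgeR's quasi-likelihood test with Benjamini-Hochberg adjustment over all genes, 6 of the 9 rose and 1 fell in WT SCC, where 40.5% of all 22371 genes tested passed, 16.9% upward and 23.6% downward. The median log2 fold change of the 9 was 1.06, beside -0.16 over all genes, and the groups did not overlap in 8 of them, as in 54.7% of all genes. In papilloma labelled KO 3 of 9 rose and none fell, where 39.6% of all genes passed, 17.1% upward and 22.4% downward, the median was 0.15 beside -0.22, and 4 did not overlap, beside 49.4% of all genes. In SCC labelled KO 3 of 9 rose and none fell, where 44.8% of all genes passed, 20.5% upward and 24.3% downward, the median was 0.25 beside -0.30, and 3 did not overlap, beside 64.6% of all genes. These comparisons share the 3 skin libraries and are not independent of each other. The keratinocyte, fibroblast and muscle values above move with each of them, and their part in these differences was not tested.

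**Figure D1:**
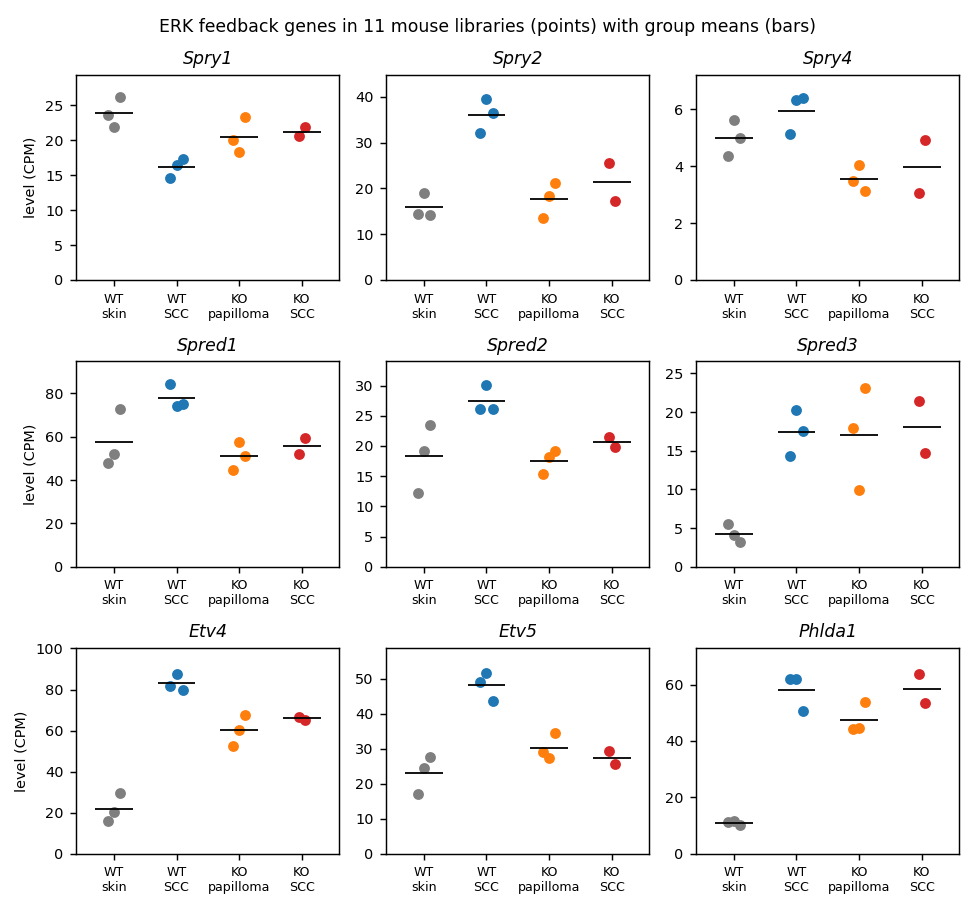
Level in CPM (vertical axes, from 0) of each of the 9 genes in the 11 mouse libraries (points) by group, with the group mean as a bar; KO means labelled Dusp1 KO. Spry2, Spry4, Spred1, Spred2, Etv4 and Etv5 in the lesions labelled KO sit below all 3 WT SCC libraries. Spred3, Etv4 and Phlda1 are above skin in every lesion library.

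Spry2, the Sprouty gene with the largest difference between skin and carcinoma (chr14:105891947-105896819 on GRCm38), stood at 14.5, 19.0 and 14.2 CPM in WT skin and at 32.2, 39.5 and 36.4 in WT SCC. It stood at 13.5, 18.2 and 21.1 CPM in papilloma labelled KO and at 25.4 and 17.2 in SCC labelled KO. Every WT SCC library was above every other mouse library, and the lesions labelled KO overlapped skin. The rise in WT SCC over skin was 1.18 ± 0.21 (log2 fold change ± SE, adjusted p = 0.00122), or 2.26-fold. In papilloma labelled KO the difference from skin was 0.15 (95% interval -0.31 to 0.60, adjusted p = 0.584) and in SCC labelled KO 0.42 (-0.08 to 0.92, adjusted p = 0.154). The group means ran in the order WT SCC 36.0 ± 3.67, SCC labelled KO 21.3 ± 5.81, papilloma labelled KO 17.6 ± 3.81 and WT skin 15.9 ± 2.71 CPM (SD, n = 3, or 2 for SCC labelled KO), and no pair among the last 3 passed the test.

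Spry1, a further Sprouty inhibitor (chr3:37639947-37644598), was lowest where Spry2 was highest. It stood at 23.6, 21.9 and 26.1 CPM in WT skin, 14.6, 16.5 and 17.3 in WT SCC, 19.98, 18.3 and 23.2 in papilloma labelled KO and 20.5 and 21.9 in SCC labelled KO. The 3 WT SCC libraries were the lowest of the 11 and overlapped no other group. The fall in WT SCC against skin was -0.57 ± 0.14 (log2, adjusted p = 0.00811), and it did not pass without the filter on low counts (adjusted p = 0.0514). The difference from skin was -0.22 in papilloma (adjusted p = 0.227) and -0.17 in SCC labelled KO (adjusted p = 0.388). As the genes moved apart, the ratio of Spry2 counts to Spry1 counts was 0.54 to 0.87 in WT skin, 2.10 to 2.39 in WT SCC, 0.68 to 0.99 in papilloma labelled KO and 1.24 and 0.78 in SCC labelled KO. A ratio of counts does not allow for the different lengths of the genes, so its change between groups is what can be read.

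Spry4, whose product can also block RAS activation, was per length the least abundant Sprouty member. It stood at 4.37, 5.64 and 5.01 CPM in WT skin, 5.14, 6.34 and 6.41 in WT SCC, 3.48, 4.06 and 3.15 in papilloma labelled KO and 3.06 and 4.92 in SCC labelled KO. The papilloma libraries lay below all skin libraries and below all WT SCC libraries, but no comparison with skin passed the test: the log2 differences were 0.25 in WT SCC, -0.49 in papilloma labelled KO and -0.33 in SCC labelled KO (adjusted p = 0.393, 0.116 and 0.324).

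Among the Spred genes, whose products hold RAS in check through neurofibromin, Spred3 differed from its relatives. Spred3 (chr7:29158829-29170411) stood at 5.49, 4.15 and 3.23 CPM in WT skin and at 14.3, 20.3 and 17.5 in WT SCC. It stood at 17.96, 9.88 and 23.1 CPM in papilloma labelled KO and at 21.4 and 14.7 in SCC labelled KO. All 8 lesion libraries were above all 3 skin libraries, and the lesion groups overlapped each other. The rise over skin was 2.02 ± 0.32 in WT SCC, 1.99 ± 0.32 in papilloma labelled KO and 2.08 ± 0.34 in SCC labelled KO (log2, adjusted p = 0.000596, 0.00066 and 0.000617), which is 4.06-, 3.97- and 4.21-fold.

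Spred1 (chr2:117121374-117182279), mutated in Legius syndrome in people, stood at 47.7, 51.8 and 72.7 CPM in WT skin, 84.1, 74.2 and 74.9 in WT SCC, 44.5, 57.5 and 51.1 in papilloma labelled KO and 52.2 and 59.5 in SCC labelled KO. The WT SCC libraries were above all others, by a small margin over WT skin 3. Its difference from skin was 0.44 ± 0.17 in WT SCC (log2, adjusted p = 0.0561), and it passed without WT skin 3 (0.66, adjusted p = 0.00523) and without the filter on low counts (0.49, adjusted p = 0.0461). In the papilloma and SCC labelled KO the differences from skin were -0.17 and -0.04 (adjusted p = 0.428 and 0.866).

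Spred2 (chr11:19924375-20024026) stood at 12.3, 19.1 and 23.5 CPM in WT skin, 26.2, 30.0 and 26.0 in WT SCC, 15.3, 18.2 and 19.1 in papilloma labelled KO and 21.4 and 19.8 in SCC labelled KO. Again the WT SCC libraries were above all others. The rise over skin in WT SCC was 0.58 ± 0.21 (log2, adjusted p = 0.0433), or 1.50-fold. That call was lost when WT skin 1, WT skin 2 or any WT SCC library was left out (adjusted p = 0.0671 to 0.133), in a fit of only the 2 groups compared (adjusted p = 0.0740) and with Y chromosome counts as a covariate (0.35, adjusted p = 0.303). In the papilloma and SCC labelled KO the differences from skin were -0.06 and 0.17 (adjusted p = 0.831 and 0.56).

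The ETV factors also parted. Etv4 (chr11:101769742-101785371) stood at 15.7, 20.3 and 29.7 CPM in WT skin and at 81.5, 87.4 and 79.9 in WT SCC. It stood at 52.5, 60.5 and 67.7 CPM in papilloma labelled KO and at 66.6 and 65.2 in SCC labelled KO. All lesion libraries were above skin, and the WT SCC libraries were above those labelled KO. The rise over skin was 1.92 ± 0.20 in WT SCC, 1.46 ± 0.20 in papilloma labelled KO and 1.59 ± 0.22 in SCC labelled KO (log2, adjusted p = 5.73e-05, 0.000268 and 0.00021), which is 3.78-, 2.74- and 3.00-fold.

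Etv5 (chr16:22381309-22439719) stood at 17.2, 24.3 and 27.6 CPM in WT skin and at 49.1, 51.6 and 43.5 in WT SCC. It stood at 29.0, 27.3 and 34.4 CPM in papilloma labelled KO and at 29.2 and 25.5 in SCC labelled KO. WT SCC overlapped no other group, while both groups labelled KO overlapped skin. The rise in WT SCC over skin was 1.06 ± 0.18 (log2, adjusted p = 0.000872), or 2.08-fold. In papilloma labelled KO the difference from skin was 0.39 (95% interval 0.00 to 0.78, adjusted p = 0.0994), which passed at 0.55 without WT skin 3 (adjusted p = 0.0283), and in SCC labelled KO 0.25 (-0.18 to 0.68, adjusted p = 0.319). The ratio of Etv4 counts to Etv5 counts was 0.84 to 1.08 in WT skin, 1.66 to 1.84 in WT SCC, 1.81 to 2.22 in papilloma labelled KO and 2.28 and 2.56 in SCC labelled KO, with no overlap between skin and any lesion group.

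The bases upstream of the start sites are shown for Etv5 and Spred3, which hold the letters described next, and for Spry2, which moved with Etv5 between the groups. They are the 250 bases before the start in RefSeq's table for GRCm38.p6. Only 7 windows, of 6 of the 9 genes, were read. No window of Spry4, Etv4 or Phlda1 was among them, so nothing is said of their upstream bases. Each window shown is printed 5′ to 3′ on the gene's strand, the minus strand for Etv5, Spred3 and Spry2. Capitals mark TGAATG on either strand, the core of the sites that Capicua is known to bind. Only this core was searched for, and the bases beside it were not compared with a full site.

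Etv5, chr16:22438369-22438618: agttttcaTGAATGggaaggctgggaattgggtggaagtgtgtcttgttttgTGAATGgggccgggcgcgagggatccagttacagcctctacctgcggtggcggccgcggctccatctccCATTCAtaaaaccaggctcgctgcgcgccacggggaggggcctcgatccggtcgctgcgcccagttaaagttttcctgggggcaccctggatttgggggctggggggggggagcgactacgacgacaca
Spred3, chr7:29168648-29168897: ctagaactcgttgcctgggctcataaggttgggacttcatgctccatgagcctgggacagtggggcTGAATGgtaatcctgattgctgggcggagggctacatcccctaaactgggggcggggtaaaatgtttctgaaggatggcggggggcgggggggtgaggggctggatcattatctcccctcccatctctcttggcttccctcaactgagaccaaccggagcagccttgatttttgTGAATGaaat
Spry2, chr14:105896820-105897069: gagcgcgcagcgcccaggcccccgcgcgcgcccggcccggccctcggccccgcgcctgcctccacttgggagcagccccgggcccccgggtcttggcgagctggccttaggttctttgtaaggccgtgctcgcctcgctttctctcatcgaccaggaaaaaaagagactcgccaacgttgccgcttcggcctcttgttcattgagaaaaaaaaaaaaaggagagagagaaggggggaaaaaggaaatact

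The Etv5 window belongs to the downstream of its 2 starts in the table, and held 3 matches, ending 124, 193 and 237 bases before the start. The Spred3 window held 2, ending 5 and 179 bases before it, and the other 5 windows held none. Both windows lie inside the gene's span in the GENCODE annotation. Of the 32851 windows listed for the whole genome, 10.9% held at least 1 match, 0.950% at least 2 and 0.131% at least 3. Neither CCGGAAG, a site of the ETS family, nor TGANTCA, the AP-1 site, was found on either strand in any of the 7 windows, against 6.91% and 6.75% of all windows. TGAATG was looked for after the windows had been seen. These matches are letters in a window, and no binding was measured.

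Phlda1 (chr10:111506286-111508645) had the largest rise of the 9 and the smallest relative spread between skin libraries. It stood at 11.1, 11.4 and 10.2 CPM in WT skin, 62.1, 62.0 and 50.5 in WT SCC, 44.3, 44.7 and 53.7 in papilloma labelled KO and 63.6 and 53.4 in SCC labelled KO. Every lesion library was over 44 CPM and every skin library under 12, and the lesion groups overlapped each other. The rise over skin was 2.42 ± 0.14 in WT SCC, 2.12 ± 0.14 in papilloma labelled KO and 2.42 ± 0.15 in SCC labelled KO (log2, adjusted p = 4.69e-06, 5.5e-06 and 3.3e-06), which is 5.34-, 4.36- and 5.36-fold.

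Between the lesions, Etv5 was lower in SCC labelled KO than in WT SCC and Spry2 was lower in papilloma labelled KO than in WT SCC, and no other member passed. In SCC labelled KO against WT SCC 1 of 9 was called, downward, where 7.87% of all genes passed, 4.48% upward and 3.38% downward. Etv5 fell by 0.81 ± 0.20 on the log2 scale (95% interval -1.25 to -0.37, adjusted p = 0.0343), or 1.76-fold. Its groups do not overlap, but the call was lost when any 1 of the 5 SCC libraries was left out (adjusted p = 0.0630 to 0.177) and with Y chromosome counts as a covariate (adjusted p = 0.0708). Spry2 differed by -0.76 ± 0.23 (log2, 95% interval -1.27 to -0.24, adjusted p = 0.0726), which passed with DESeq2 (adjusted p = 0.0261). Spry4, Spred1, Spred2 and Etv4 differed by -0.58, -0.48, -0.41 and -0.33, and Spry1 by 0.40 (log2, adjusted p = 0.139 to 0.391). Spred3 and Phlda1 stood at 0.05 (95% interval -0.69 to 0.80) and 0.01 (-0.32 to 0.34), with adjusted p = 0.954 and 0.991. The groups did not overlap in 7 of the 9 genes, where 46.6% of all genes did not, and the median of the 9 was -0.41 beside -0.01 over all genes. With Y chromosome counts as a covariate that median was -0.22 beside -0.08 over all genes. Dusp1 counts were 2.11-fold higher in the SCC labelled KO than in WT SCC (log2 1.07 ± 0.25, adjusted p = 0.0284), so the directions given here follow the labels, which these counts do not check. Immune markers moved between the same groups. The summed level of 5 B and plasma cell markers was 181 to 191 CPM in WT SCC and 12.7 and 17.8 in SCC labelled KO. That of 7 macrophage markers was 285 to 369 and 180 and 232, and that of 6 T cell markers 8.83 to 12.5 and 4.94 and 6.53. No marker on these immune lists was at 0 in every library of a group. Of those tested, 2 of 4 B and plasma cell markers passed as lower, and 0 of 7 macrophage and 0 of 6 T cell markers passed. All 8 fibroblast and all 7 skeletal muscle markers also had a negative fitted fold change, with 1 on each list passing. Their median log2 fold changes were -0.51 and -4.88, but the sums of both lists overlapped between the groups. Muscle markers summed to 5.95, 13.8 and 126 CPM in WT SCC and to 12.5 and 5.41 in SCC labelled KO, with WT SCC 3 far above the rest. Fibroblast markers summed to 2406 to 4076 CPM in WT SCC and to 1092 and 3299 in SCC labelled KO. Keratinocyte markers, whose sum was higher in SCC labelled KO, went both ways. Of the 10, 4 were higher and 6 lower, with 2 passing as higher and a median of -0.16. The part of all these cells in the differences was not tested.

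In papilloma labelled KO against WT SCC, which differ in lesion type and in label at once, 1 of 9 was called, downward, where 5.25% of all genes passed, 3.49% upward and 1.77% downward. Spry2 fell by 1.03 ± 0.21 on the log2 scale (adjusted p = 0.0156), or 2.04-fold, and the call was lost without WT SCC 2, WT SCC 3 or papilloma 1 (adjusted p = 0.0722, 0.0510 and 0.0605). Etv5 differed by -0.67 and Spred1 by -0.61 (log2, adjusted p = 0.0532 and 0.0635). Spry4, Spred2 and Etv4 differed by -0.74, -0.64 and -0.46 (adjusted p = 0.0998 to 0.227), Phlda1 by -0.29 and Spry1 by 0.35 (adjusted p = 0.262 and 0.2). DESeq2 called 5 of the 9 here, all lower: Spry2, Etv5, Spred1, Spred2 and Spry4. It also called more of all genes, 2170 of the 21074 to which it gave an adjusted p-value. The groups did not overlap in 7 of 9, beside 26.6% of all genes, and the median was -0.61 beside 0.02. Both comparisons share the WT SCC libraries. B and plasma cell markers summed to 9.49 to 63.0 CPM and macrophage markers to 195 to 262 in papilloma labelled KO, below WT SCC in every library, while T cell markers, at 9.54 to 14.8, overlapped WT SCC, and their part in the result was not tested.

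SCC and papilloma labelled KO, which share the label but not the lesion type, had 0 of the 9 past the threshold in edgeR's quasi-likelihood test, where 0.286% of all genes passed, 0.0492% upward and 0.237% downward. None of the 9 had an unadjusted p under 0.05, and DESeq2 called 0 as well. Of these 5 libraries SCC labelled KO 2 alone held Y chromosome counts, and with those counts as a covariate 0 members and 240 genes in place of 64 were called. Log2 differences ran from -0.14 for Etv5 (95% interval -0.58 to 0.29) to 0.30 for Phlda1 (-0.03 to 0.63), with adjusted p = 0.358 to 0.933. The widest interval was that of Spred3, at -0.66 to 0.83, so a difference of that size was not detectable with these libraries. The median of the 9 was 0.13 beside -0.05 over all genes, and Spred2 was the only member whose groups did not overlap (31.6% of all genes did not).

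**Figure D2:**
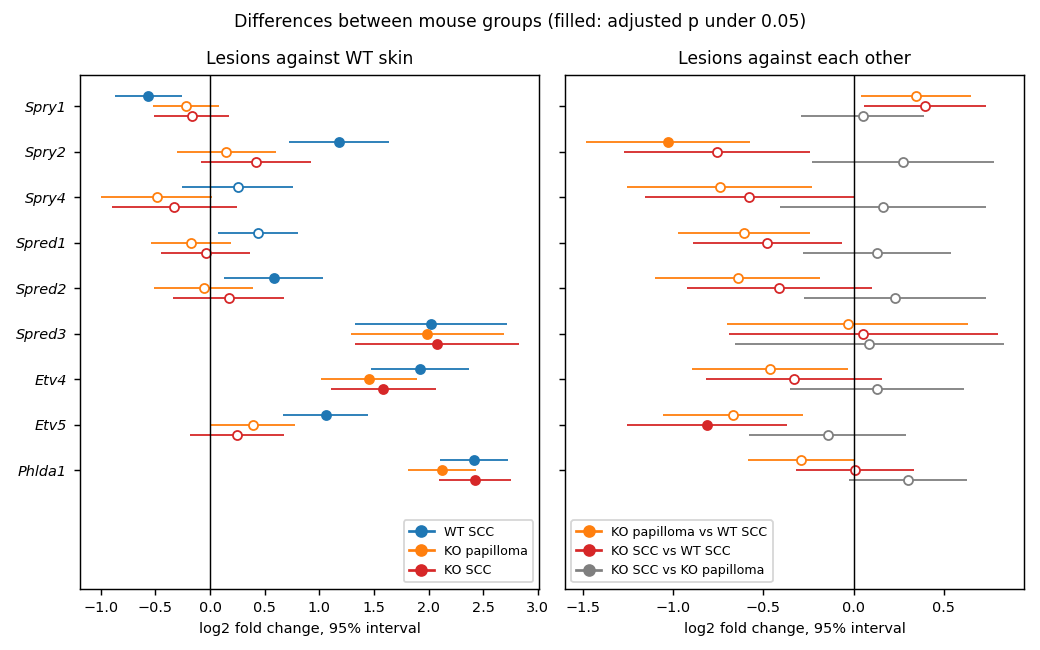
Fitted log2 fold change (horizontal axis) with its 95% interval for the 9 genes, for the lesions against WT skin (left) and against each other (right); filled points passed at adjusted p under 0.05, and KO means labelled KO. Spred3, Etv4 and Phlda1 are filled for all 3 lesion groups on the left, and on the right only Spry2 (-1.03, papilloma labelled KO) and Etv5 (-0.81, SCC labelled KO) are.

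Levels of different genes were compared per length, as CPM per kilobase of merged exons. In WT skin Spred1, Spry1, Spry2 and Etv4 were the highest, at 8.46, 8.22, 7.62 and 7.06, and Spred3 and Spry4 the lowest, at 0.689 and 1.05. In WT SCC Etv4 and Phlda1 led at 26.7 ± 1.27 and 26.4 ± 3.01 (SD, n = 3) and did not differ beyond their spread. Spry2 at 17.3, Etv5 at 11.7 and Spred1 at 11.5 came next, and Spred2 at 5.94 and Spry1 at 5.55 did not differ beyond their spread. In SCC labelled KO Phlda1 and Etv4 again led at 26.5 and 21.2, while Spry2 stood at 10.2, Spred1 at 8.23, Spry1 at 7.31 and Etv5 at 6.66. In papilloma labelled KO Phlda1 and Etv4 were at 21.6 and 19.4, with Spry2 at 8.44 and Spry1 at 7.06. Spry4 was the lowest of the 9 in every lesion group, at 0.749 to 1.25.

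**Figure D3:**
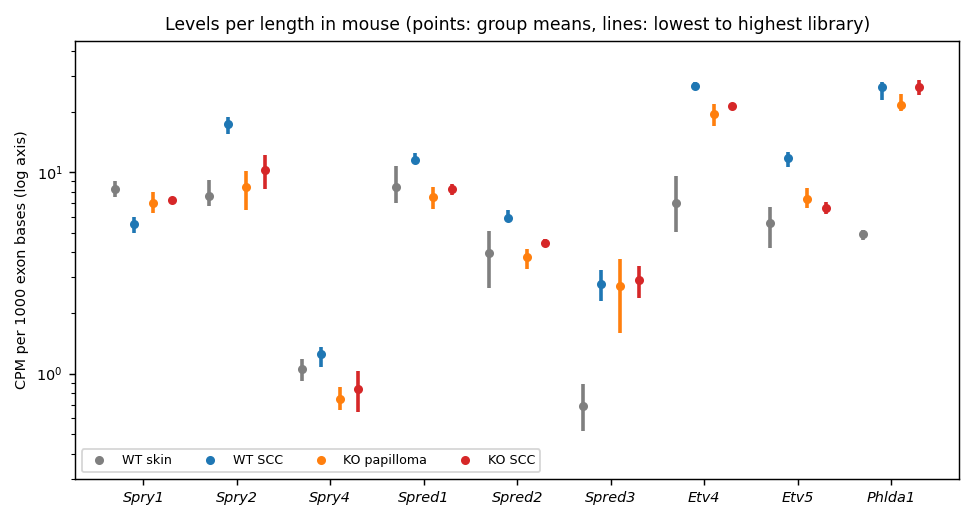
Level per length (CPM per kilobase of merged exons, log axis) of the 9 genes in the 4 mouse groups; points are group means and lines run from the lowest to the highest library, and KO means labelled KO. Etv4 and Phlda1 are the highest in all 3 lesion groups, with means of 19.4 to 26.7.

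Across the 11 mouse libraries the 9 genes fell into patterns that can be given as the root mean square difference of log2 levels, each centred on its own mean. All such distances share the libraries and the difference between skin and lesions, so they describe likeness only. Spred1 and Spred2 were the closest pair at 0.181, followed by Spred2 and Etv5 at 0.233, Spry4 and Spred1 at 0.263 and Spry2 and Etv5 at 0.279. Phlda1 was nearest to Spred3 at 0.341 and to Etv4 at 0.375, and the farthest pair was Spry1 and Phlda1 at 1.21. Etv4 and Etv5, close relatives in sequence, were at 0.518, farther apart than Spry2 and Etv5. Other genes of sufficient level were searched, apart from those with names of the Gm-number or Rik kind. Among them Etv5 was most like Trp63 at 0.136, a transcription factor of basal keratinocytes, and Klf13 at 0.145. Phlda1 was most like S100a11 at 0.143, a calcium-binding protein, and Duoxa1 at 0.158, which matures a dual oxidase. The nearest genes to Spry2 were Paxbp1 and Pcdhb7 at 0.202 and 0.207, to Etv4 Abhd17c and Orai2 at 0.189 and 0.197, and to Spred3 Pgam1 and Cfap43 at 0.240 and 0.249. Those nearest to Spry1 were Lpcat3 and Mcur1 at 0.120 and 0.126, to Spry4 Fbxl12 and Zswim6 at 0.160 and 0.162, to Spred1 Lemd3 and Zfp799 at 0.111 and 0.115, and to Spred2 Cacul1 and Zfp113 at 0.125 and 0.152.

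Other genes of the pathway were read from 4 lists beside the members, and their counts are to be read against the shares of all genes given above. Of 11 further ERK-induced genes, 8 rose and none fell in WT SCC against skin, with a median log2 fold change of 1.48, and 8 rose and 2 fell in SCC labelled KO against skin. Fosl1, an AP-1 subunit, stood at 1.97 CPM on average in skin and at 29.2, 28.4 and 29.6 in WT SCC, papilloma and SCC labelled KO. Like those of Phlda1, its lesion groups were all above skin and overlapped each other. Dusp6, the ERK phosphatase, stood at 80.2 in skin, 459 in WT SCC, 232 in papilloma and 185 in SCC labelled KO, the same order as the means of Etv5. Unlike Etv5 it passed against skin in papilloma (1.53, adjusted p = 0.00463) and in SCC labelled KO (1.201, adjusted p = 0.0207), and its difference between SCC labelled KO and WT SCC was -1.32 (log2, adjusted p = 0.0626). In SCC labelled KO against WT SCC 2 of the 11 fell, the immediate early genes Egr1 (-1.68, adjusted p = 0.00914) and Fos (-1.27, adjusted p = 0.0415), and the median was -0.02. Of 18 genes of the RAS-ERK cascade, 5 rose and 2 fell in WT SCC against skin, a share near the 40.5% of all genes, and 2 fell in SCC labelled KO against WT SCC, the scaffold Ksr1 (-0.97, adjusted p = 0.0149) and the exchange factor Sos1 (-0.62, adjusted p = 0.0483). Of 8 receptors, 3 fell between these SCC groups, Fgfr2, Fgfr3 and Igf1r (-0.59, -0.59 and -0.68, adjusted p = 0.018 to 0.0487), and none rose. Of 13 other inhibitors of receptor or RAS signalling, 3 fell and none rose: Cblb, a ubiquitin ligase that acts on receptors, by 1.25, Lrig1, a membrane inhibitor of EGF receptors, by 1.08, and Rasa3, a RAS GTPase activator, by 0.67 on the log2 scale (adjusted p = 0.00187, 0.0116 and 0.0429). The median of these 13 was -0.54 beside -0.01 over all genes and -0.41 over the members.

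In A431 xenograft cells, KO against control gave higher levels of 5 members and a lower level of 1, of 8 tested, with the ETV factors 2.07- and 2.12-fold higher. The test called 47.6% of all 18090 genes, 23.1% upward and 24.5% downward, so a call alone is common here. The median log2 fold change of the 8 was 0.52 beside 0.01 over all genes, and the groups did not overlap in 7 of the 8, beside 55.0% of all genes. The A431 libraries held keratinocyte markers at 54000 to 58487 CPM for the 9 of 10 rows found by symbol. The 8 fibroblast markers summed to 126.5 to 127 in controls and 76.5 to 88.8 in KO, with COL1A2 and THY1 at 0 in all controls, and their part in the differences was not tested.

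ETV4 stood at 19.8, 17.9 and 19.3 CPM in controls and at 37.3, 40.6 and 40.0 in KO. ETV5 stood at 5.66, 5.77 and 5.91 in controls and at 12.5, 12.7 and 11.5 in KO. For both genes the KO libraries were all well above the controls, with group SDs of at most 1.76 CPM. ETV4 rose by 1.05 ± 0.06 and ETV5 by 1.08 ± 0.09 (log2, adjusted p = 4.56e-10 and 3.47e-08), the largest differences of the 8. Both calls held under the 10 alternatives run, among them the fits without KO 2 and without KO 3.

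PHLDA1 stood at 55.6, 54.3 and 56.9 CPM in controls and at 77.0, 81.3 and 82.1 in KO, a rise of 0.53 ± 0.05 (log2, adjusted p = 1.41e-07), or 1.44-fold. SPRED2 stood at 22.6, 22.0 and 20.2 in controls and at 28.4, 25.4 and 27.1 in KO, a rise of 0.32 ± 0.07 (adjusted p = 0.000732), or 1.25-fold. Neither gene's groups overlapped. SPRED1 stood at 23.5, 25.1 and 23.0 in controls and at 27.3, 25.6 and 25.8 in KO, also without overlap, but its difference of 0.14 ± 0.06 did not pass (adjusted p = 0.0836). SPRED3 was near the limit of counting, with 4, 8 and 8 reads in controls and 14, 8 and 21 in KO, and was not tested. Without the filter its difference was 1.197 (log2, adjusted p = 0.144), and among the fits in which it was tested with a library left out it passed only without KO 2 (1.49, adjusted p = 0.0408).

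The Sprouty genes of A431 did not share 1 direction. SPRY4, at 24.0, 26.1 and 24.2 CPM in controls and 20.01, 22.4 and 22.8 in KO, fell by 0.19 ± 0.07 on the log2 scale (adjusted p = 0.0293), a 1.14-fold difference. That call was lost without control 2 or without KO 1 (adjusted p = 0.115 and 0.0781). SPRY2 was scarce, at 1.51, 1.89 and 1.91 CPM in controls and 2.30, 2.63 and 2.66 in KO, and rose by 0.51 ± 0.18 (adjusted p = 0.024). Its call was lost in 5 of 10 alternatives, with no filter (adjusted p = 0.0548), with DESeq2 (adjusted p = 0.0882) and in the fits without control 1, KO 2 or KO 3 (adjusted p = 0.118, 0.0592 and 0.0632). SPRY1, at 1.43, 1.02 and 1.12 CPM in controls and 1.41, 1.79 and 2.06 in KO, differed by 0.56 ± 0.23 (adjusted p = 0.0507), which passed with RLE size factors and without control 1 or KO 1 (adjusted p = 0.0494, 0.0403 and 0.0169).

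**Figure D4:**
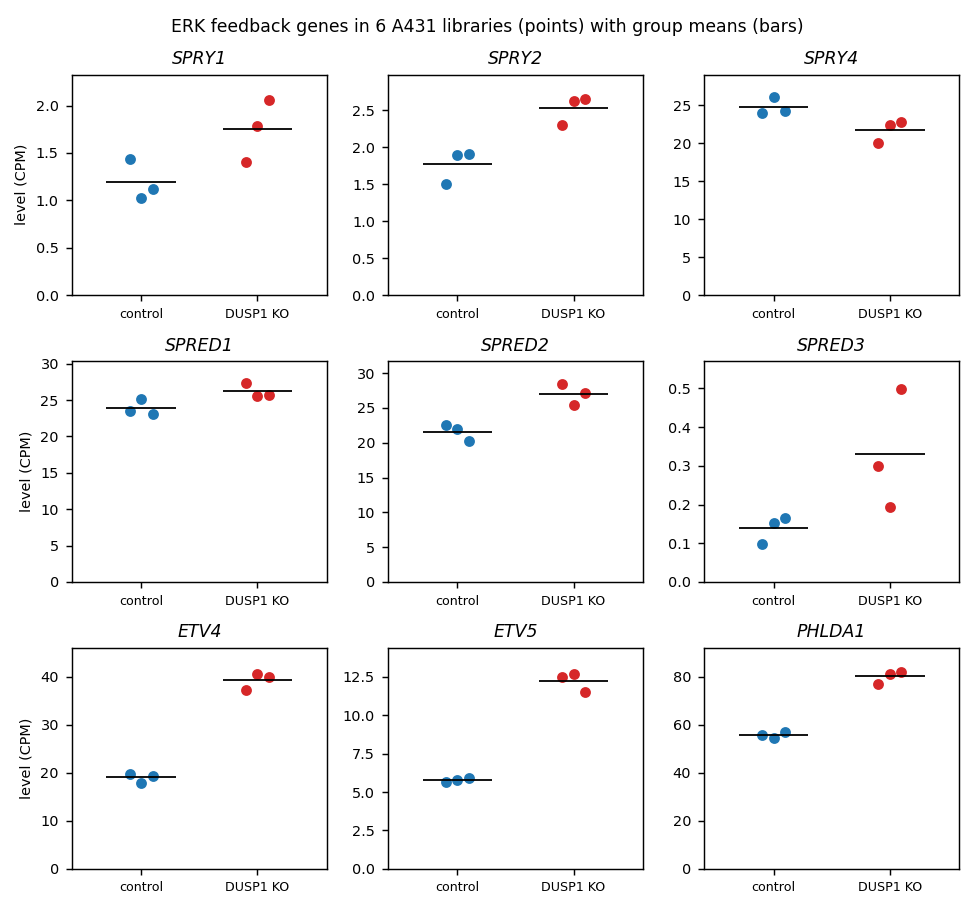
Level in CPM (vertical axes, from 0) of the 9 genes in the 6 A431 libraries (points) by group, with the group mean as a bar. ETV4 and ETV5 in the 3 KO libraries lie above all controls, at 37.3 to 40.6 and 11.5 to 12.7 CPM.

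The other ERK-induced genes of A431 went both ways, where 47.6% of all genes passed. Of the 11, 2 rose, DUSP6 by 0.84 and FOSL1 by 0.76, and 6 fell, among them FOS by 1.11 and EGR1 by 0.60 (log2, adjusted p = 7.25e-10, 4.28e-09, 9.03e-13 and 1.43e-08), with a median of -0.18. Of the 18 cascade genes 3 rose and 8 fell, and of the 8 receptors 4 rose and 2 fell, with EGFR lower by 0.66 (adjusted p = 5.29e-10) and FGFR1 higher by 1.75 at 3.43 against 1.01 CPM (adjusted p = 6.78e-07). Of the 13 other inhibitors 4 rose and 4 fell, with LRIG1 and RASA3 higher by 0.83 and 0.84 (adjusted p = 0.000695 and 7.17e-08).

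Set side by side, SCC labelled KO against WT SCC and A431 KO against control gave Etv5 -0.81 and 1.08, Etv4 -0.33 and 1.05, Spry2 -0.76 and 0.51, Spred2 -0.41 and 0.32 and Spred1 -0.48 and 0.14 (log2). For these 5 of the 8 members tested in both, the libraries of the groups overlapped in neither system and the directions were opposite. Of 11862 genes with 1 symbol tested in both systems, 20.3% were opposite in that way and 16.6% went the same way without overlap. Spry4 was lower in both, at -0.58 and -0.19, and Spry1 was 0.40 and 0.56. The difference between the systems was not tested, because they were counted in separate tables of different species.

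**Figure D5:**
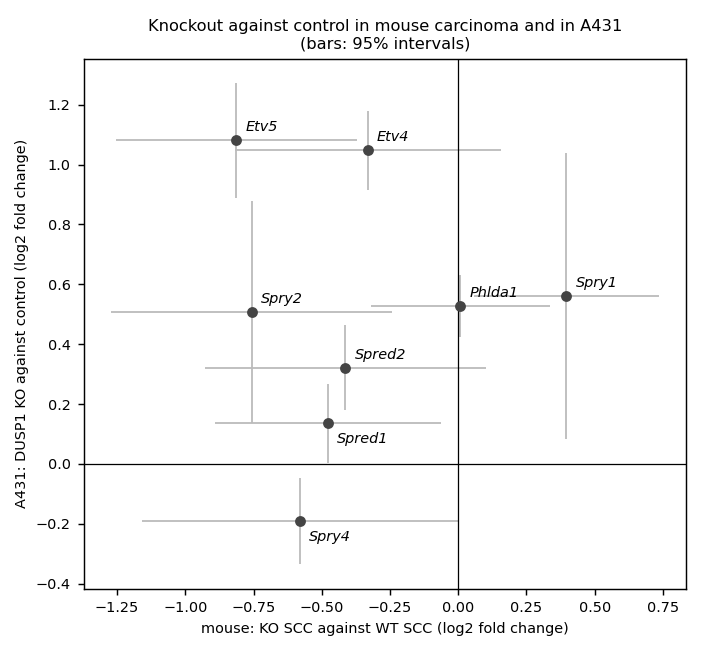
Log2 fold change of SCC labelled KO against WT SCC in mouse (horizontal) and of DUSP1 KO against control in A431 (vertical) for the 8 members tested in both, with 95% intervals as bars. Etv5, Etv4, Spry2, Spred1 and Spred2 lie at the upper left, lower in mouse SCC labelled KO and higher in A431 KO, and Spry4 lies below 0 on both axes.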

How the data were processed

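Poly(A) RNA was sequenced with a stranded kit, per the labels' protocols. The authors deposited raw read counts per gene in 1 mouse and 1 human table. HISAT2, StringTie and DESeq with mm10 and hg38 are named in the submitters' processing notes, with no versions. Counting rule, strand setting and annotation: not given in the sources used here. Overlapping and antisense genes are therefore uncertain. Features without a gene name, 1456 of 55988 in mouse and 223 of 58958 in A431, held 0.115 to 0.496% and 0.190 to 0.211% of the counts and were left out. The 11 mouse libraries were fitted as 4 groups and the 6 A431 libraries apart, with edgeR 4.0.16 in R 4.3.3 (filterByExpr, TMM, quasi-likelihood test, two-sided). P-values were adjusted by Benjamini-Hochberg over all genes of a comparison, at 0.05, and errors of fold changes are standard errors. All adjusted p-values are from this fit unless DESeq2 1.42.0 is named. CPM use library sizes scaled by normalization factors of 0.816 to 1.24 in mouse and 0.976 to 1.02 in A431. No libraries were found to be duplicates, with chi-square per degree of freedom of at least 3.56 between replicates. The 7 comparisons, 6 in mouse, were recomputed with RLE size factors, without a filter, in DESeq2, with replicate numbers as a block and with each library left out, and the mouse ones also in only the groups compared and with Y chromosome counts as a covariate. The script was tested on simulated data.

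The members, the other lists and the tests were chosen with earlier results of these data known. Named were all members, the targeted gene, up to 3 genes of a list by smallest p, and for each member the 2 genes of average log2 CPM of at least 1 (prior count 2) with the closest pattern. Names of the Gm-number or Rik kind were left out of that search for patterns. Dusp6 in mouse and EGR1 and LRIG1 in A431 were named after their values were seen. Gene positions and merged exons are from GENCODE M21 on GRCm38, which is mm10.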

Additional observations from a re-analysis of the deposited data

Results flagged for a closer look

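For 5 members the KO and control libraries overlapped in neither system and the direction was opposite, lower in mouse SCC labelled KO and higher in A431 KO. In SCC labelled KO against WT SCC the log2 fold changes were -0.76 for Spry2, -0.48 for Spred1, -0.41 for Spred2, -0.33 for Etv4 and -0.81 for Etv5. In A431 KO against control they were 0.51 for SPRY2, 0.14 for SPRED1, 0.32 for SPRED2, 1.05 for ETV4 and 1.08 for ETV5. The difference between mouse and A431 was not tested. In mouse only Etv5 passed the threshold, and in A431 SPRED1 did not. The mouse values come from whole sections in which Dusp1 RNA was not lower in the libraries labelled KO, and the A431 values from recovered tumour cells in which DUSP1 RNA was 6.42-fold lower. Of the 11862 genes with 1 symbol tested in both systems, 2408 were opposite without overlap and 1968 went the same way without overlap.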

How the results depend on the processing

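The number of members called was within 1.5 times the reported one under every alternative for the lesions against WT skin (6 to 8, 3 to 4 and 3), for SCC against papilloma labelled KO (0) and for A431 (5 to 7). In SCC labelled KO against WT SCC 1 member was called, 0 with the replicate number as a block, 0 with Y chromosome counts as a covariate, 2 with DESeq2, 3 with only the 2 groups compared and 0 to 0 with each library left out. In papilloma labelled KO against WT SCC 1 was called, 2 without a filter, 2 with Y chromosome counts, 5 with DESeq2, 4 with only the 2 groups compared and 0 to 1 with each library left out. Deviations of same-numbered libraries from their group means correlated at -0.411 to 0.166 in mouse and -0.0275 to 0.00688 in A431. Differently numbered libraries were not correlated as a reference, so these values cannot decide whether replicate numbers pair the libraries. The block ended the call of Etv5 in SCC labelled KO against WT SCC (-0.76, adjusted p = 0.0914) and changed no other member's call.

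Among the fold changes of single members 26 alternative values changed sign, none of a called value. Against WT skin, Spred2 in papilloma labelled KO was 0.0026 without a filter, and Spred1 in SCC labelled KO was 0.068 without a filter, 0.025 with the block and 0.069 with only the 2 groups. Phlda1 in SCC labelled KO against WT SCC was -0.0092 with the block and -0.0050 with only the 2 groups. Etv5 and Spry4 in SCC against papilloma labelled KO were 0.014 and -0.0030 with Y chromosome counts. With each library left out, papilloma labelled KO against skin ran from -0.29 to 0.048 for Spred1, -0.0031 to 0.31 for Spry2 and -0.28 to 0.17 for Spred2. SCC labelled KO against skin ran from -0.18 to 0.16 for Spred1 and -0.068 to 0.39 for Spred2, and against WT SCC from -0.12 to 0.13 for Phlda1 and -0.24 to 0.30 for Spred3. Papilloma labelled KO against WT SCC ran from -0.32 to 0.24 for Spred3. SCC against papilloma labelled KO ran from -0.032 to 0.53 for Spry2, -0.025 to 0.15 for Spry1, -0.21 to 0.37 for Spred3 and -0.22 to 0.47 for Spry4. The cause of these changes was not tested.

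Counts over all genes moved more. SCC labelled KO against WT SCC called 1760 genes, 798 with the block, 3338 with DESeq2, 4160 with only the 2 groups and 302 to 975 with a library left out. Papilloma labelled KO against WT SCC called 1175, 1854 without a filter, 2170 with DESeq2, 1797 with only the 2 groups and 478 to 1100 with a library left out. SCC against papilloma labelled KO called 64, 611 without a filter, 1 with the block, 240 with Y chromosome counts, 822 with DESeq2 and 0 to 84 with a library left out. SCC labelled KO against skin called 10013, and 5884 to 9891 with a library left out. The biological coefficient of variation was 36.6% in mouse and 6.11% in A431, and with 2 or 3 mouse libraries a group small differences of the members were not detectable.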

Other observations

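Relatives of the members outside the chosen symbols had levels of their own. Phlda2 stood at 3.40 to 3.80 CPM in WT skin, 14.7 to 17.2 in WT SCC, 19.1 to 29.2 in papilloma labelled KO and 22.3 and 27.9 in SCC labelled KO, with no overlap between skin and lesions. Its rise over skin was 2.15 ± 0.18 in WT SCC, 2.80 ± 0.19 in papilloma and 2.81 ± 0.20 in SCC labelled KO (log2, edgeR's adjusted p = 1.89e-05, 5.69e-06 and 6.02e-06). Phlda3 rose by 1.28, 1.13 and 1.33 in the same order (adjusted p = 0.000261, 0.000561 and 0.00028).

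Etv1, the ETS factor closest to Etv4 and Etv5, went the other way, at 7.35 to 7.90 CPM in WT skin, 4.47 to 4.89 in WT SCC, 2.04 to 2.41 in papilloma labelled KO and 1.76 and 4.27 in SCC labelled KO. It fell by 1.73 ± 0.29 in papilloma and by 1.32 ± 0.33 in SCC labelled KO against skin on the log2 scale (adjusted p = 0.000846 and 0.007), and its difference in WT SCC was -0.70 (adjusted p = 0.0642). Spry3 stayed under 0.8 CPM in every mouse library, with 2 to 45 counts. In A431 PHLDA2 rose by 0.16 and PHLDA3 fell by 0.17 on the log2 scale (adjusted p = 0.0177 and 0.0163), and ETV1, at 5 to 13 counts, was not tested.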
